A study of Mus musculus with 28 samples.

Results

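The 10 genes described here carry glucose into the cell, take it through glycolysis to lactate, or move lactate across the plasma membrane: Slc2a1, Slc2a3, Hk1, Hk2, Pfkl, Pgk1, Ldha, Slc16a1, Slc16a3 and Pdk1. They were chosen by symbol, and all 10 were found among the 23382 symbols listed for each library. Their levels were measured by RNA-seq in 28 libraries of mouse germinal center (GC) B cells. The labels give 6 groups by genotype, and all of them carry Cg1Cre(+/-), an allele that expresses Cre recombinase from the immunoglobulin gamma 1 constant region and so acts in B cells that respond to antigen. The D370Y group (5 libraries) is heterozygous for the point mutation, Tbl1xr1(D370Y/WT), and its WT control (3 libraries) is Tbl1xr1(WT/WT). A second pair adds the ImuBCL6 allele, which drives Bcl6 from an immunoglobulin heavy-chain promoter: ImuBcl6 D370Y (5 libraries) and ImuBcl6 with Tbl1xr1(WT/WT) (5 libraries). The last pair is the group labelled KO, Tbl1xr1(KO/KO) (5 libraries), and its Cre control (5 libraries), whose genotype label is the same as that of WT. Every mutant group was set against its matching control, and the 3 comparisons share no library. The labels do not tie libraries to animals, give no age, and do not say whether animals were pooled, so p-values measure the spread between these libraries, which may be technical in part.

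Glycolysis splits glucose into pyruvate and yields ATP without oxygen, and lactate dehydrogenase turns pyruvate into lactate while it restores the NAD+ that glycolysis uses up. GC B cells divide fast in a tissue with hypoxic zones, where the transcription factor HIF1A raises many glycolytic genes, and MYC acts on several of the same genes in positively selected cells. GLUT1 (Slc2a1) and GLUT3 (Slc2a3) bring glucose in, hexokinases (Hk1, Hk2) phosphorylate it, and the liver-type phosphofructokinase subunit (Pfkl) belongs to the enzyme of the committed step. Phosphoglycerate kinase (Pgk1) makes ATP, LDHA makes lactate, MCT4 (Slc16a3) mostly exports lactate, and MCT1 (Slc16a1) carries it either way along its gradient. PDK1 inhibits pyruvate dehydrogenase and so holds pyruvate back from the mitochondria.

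The main results below concern the lactate transporters Slc16a3 and Slc16a1, whose ratio differed in 1 comparison, and Ldha and Pgk1, which have many near-identical copies in the genome. Their RefSeq promoter windows (GRCm38.p6), the 250 bases before an annotated start, are therefore shown, with ACGTG matches on either strand in capitals. ACGTG is the core of the hypoxia response element bound by HIF, and CACGTG, which holds 1 ACGTG on each strand, is the E-box bound by MYC. The windows read 5′ to 3′ on the plus strand, on which all 4 genes lie, and 14 bases of the Slc16a3 window are exonic in the GENCODE M21 annotation.
Slc16a3, chr11:120948817-120949066: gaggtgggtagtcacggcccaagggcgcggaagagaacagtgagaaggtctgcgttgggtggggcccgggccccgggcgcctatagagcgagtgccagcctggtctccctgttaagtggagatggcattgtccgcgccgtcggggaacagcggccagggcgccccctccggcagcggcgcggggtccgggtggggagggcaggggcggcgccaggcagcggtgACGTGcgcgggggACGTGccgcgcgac
Slc16a1, chr3:104638414-104638663: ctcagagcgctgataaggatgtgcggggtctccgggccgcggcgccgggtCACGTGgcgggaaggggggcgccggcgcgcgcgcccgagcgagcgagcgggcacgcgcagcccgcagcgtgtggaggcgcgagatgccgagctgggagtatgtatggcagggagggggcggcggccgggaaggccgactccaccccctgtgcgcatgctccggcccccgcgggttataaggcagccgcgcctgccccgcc
Ldha, chr7:46845554-46845803: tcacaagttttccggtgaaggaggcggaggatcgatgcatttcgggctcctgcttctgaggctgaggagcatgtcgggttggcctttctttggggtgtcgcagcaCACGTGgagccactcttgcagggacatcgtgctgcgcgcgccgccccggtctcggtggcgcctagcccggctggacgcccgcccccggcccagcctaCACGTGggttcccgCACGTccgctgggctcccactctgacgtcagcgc
Pgk1, chrX:106186850-106187099: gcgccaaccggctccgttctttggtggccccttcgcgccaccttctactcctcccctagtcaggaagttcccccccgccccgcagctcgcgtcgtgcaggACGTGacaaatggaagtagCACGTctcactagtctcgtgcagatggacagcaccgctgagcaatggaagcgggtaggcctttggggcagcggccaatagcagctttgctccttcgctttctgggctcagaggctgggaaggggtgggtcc
The Slc16a3 window holds 2 ACGTG matches, at 27 and 14 bases before the start, and no CACGTG. In the Slc16a1 window the 2 matches are the strands of 1 CACGTG, 200 bases before the start. The Ldha window shown holds 5 matches, 4 of them in 2 CACGTG, while the other RefSeq window of Ldha (chromosome 7, 46846832 to 46847081) holds none, and Pgk1 holds 2, at 150 and 131 bases. Of the members, 9 had a RefSeq window (Slc2a3 did not), and 6 of their 12 windows held ACGTG, 1 each for these 4 genes, Slc2a1 and Hk2. Among 32851 promoter windows of the same length, 16.6% held ACGTG and 6.02% held CACGTG. A match describes letters in the window and not a bound site.

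Levels are given as CPM, the reads of a gene scaled to a common library total. Listed genes took 19.0 to 22.2 M reads in the D370Y and WT libraries and 27.1 to 37.7 M in the other 4 groups, so that 3 reads came to 0.0640 to 0.133 CPM. All 11 markers of GC B cells were detected in every library, among them Bcl6 (308 to 590 CPM, driven also by the added allele in the ImuBcl6 groups) and S1pr2 (344 to 576 CPM), while Mki67 (169 to 2006 CPM) and Mybl1 (26.0 to 309 CPM) varied widely. In limma fits Gcet2, another marker of the list, was called lower in each mutant or labelled KO group than in its control, and Bcl6 in ImuBcl6 D370Y, with no marker of the list called higher. Tbl1xr1 averaged 102 CPM in the group labelled KO (range 89.7 to 127) and 86.0 CPM in its Cre control (80.6 to 94.5), so this symbol-level value does not show the deletion that the label names, and directions given for that group rest on its label. Labelled KO replicate 3 stood apart, with 64.4% of its CPM denominator on listed genes against 82.6% to 84.6% in the other 4, and it was lowest in its group for 9 of the 10 members. All 5 D370Y libraries had the Xist pattern of females and all 3 WT libraries Y-linked reads, with the reverse in the ImuBcl6 pair, so sex and allele cannot be told apart in either D370Y comparison. The labelled KO group had 2 libraries with Xist and 3 with Y-linked reads, and the Cre control 4 and 1. Of 14 myeloid markers none was at 0, and their summed level was 119 to 141 CPM in D370Y against 71.0 to 85.4 in WT, 166 to 248 in ImuBcl6 D370Y against 122 to 165 in ImuBcl6, and 96.2 to 196 in the group labelled KO against 111 to 158 in its Cre control. Mpeg1 alone averaged 82.5 CPM in D370Y and 55.6 in WT, most of the sum in that pair, and 28.6 in labelled KO against 30.8 in its Cre control. Of the tested myeloid markers 6 of 9 were called higher in D370Y and 4 of 7 in ImuBcl6 D370Y, and 0 of 9 in labelled KO. Beside this and the other marker counts, 2.6%, 2.8% and 0.476% of all tested genes were called higher in the 3 pairs. The shares called lower were 0.943%, 5.38% and 0.913%. The 12 proliferation markers summed to 5027 to 5425 CPM in D370Y against 5625 to 5885 in WT, 4769 to 5733 against 5402 to 6313 in the ImuBcl6 pair, where 3 were called lower (Bub1b, Aurkb and Uhrf1), and 3944 to 4712 against 4244 to 4567 in the labelled KO pair. The 7 plasma cell markers summed to 1907 to 3739 against 2365 to 2633 CPM, with Prdm1 and Irf4 called higher in D370Y, 2012 to 3054 against 1997 to 2195 CPM, with Mzb1 (listed as 2010001M09Rik) called higher in ImuBcl6 D370Y, and 1246 to 2148 against 1791 to 2206 CPM. Of 4 tested T cell markers 2 were called higher in ImuBcl6 D370Y. The 8 T cell markers found summed to 141 to 173 against 139 to 141 CPM, 178 to 225 against 125 to 152 CPM and 127 to 292 against 151 to 189 CPM in the same order of pairs. Most of each sum was Cd2, which averaged 150 against 134, 189 against 138 and 217 against 160 CPM. Of 2 tested markers of stroma and endothelium 1, Pecam1, was called higher in ImuBcl6 D370Y, and 0 in the other pairs. No tested erythroid marker was called. The 7 erythroid markers found summed to 2.53 to 5.24 against 2.67 to 4.56 CPM, 3.02 to 10.7 against 2.49 to 6.91 CPM and 3.83 to 47.0 against 2.93 to 9.91 CPM. The part of these markers and of sex in the results below was not tested.

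All 10 members were expressed in every library, with no fewer than 53 reads for any of them. On the scale of CPM per kilobase of annotated exon, Ldha stood highest and Slc16a3 lowest in each of the 6 groups. In WT cells the level of Ldha was 152 ± 12.5 CPM per kb (SD, n = 3), that of Slc16a1 13.7 ± 0.286 and that of Slc16a3 1.25 ± 0.451. Between these ends the order varied: after Ldha came Slc16a1 in D370Y (13.0 CPM per kb), Pgk1 in ImuBcl6 (17.8) and Pfkl in the Cre control. In the last, Pfkl and Pgk1 overlapped at 14.4 ± 1.04 and 12.4 ± 1.502 CPM per kb (SD, n = 5) and were followed by Slc2a1 at 10.7 ± 0.224, which overlapped Pgk1. Next came Slc16a1 (8.89 ± 0.411), Hk1 (7.08 ± 0.686) and Hk2 (3.41 ± 0.244), each apart from its neighbours in the Cre control. Pdk1 (2.50 ± 0.269) and Slc2a3 (1.89 ± 0.172) overlapped, and Slc16a3 (0.717 ± 0.128) lay below both.

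**Figure D1:**
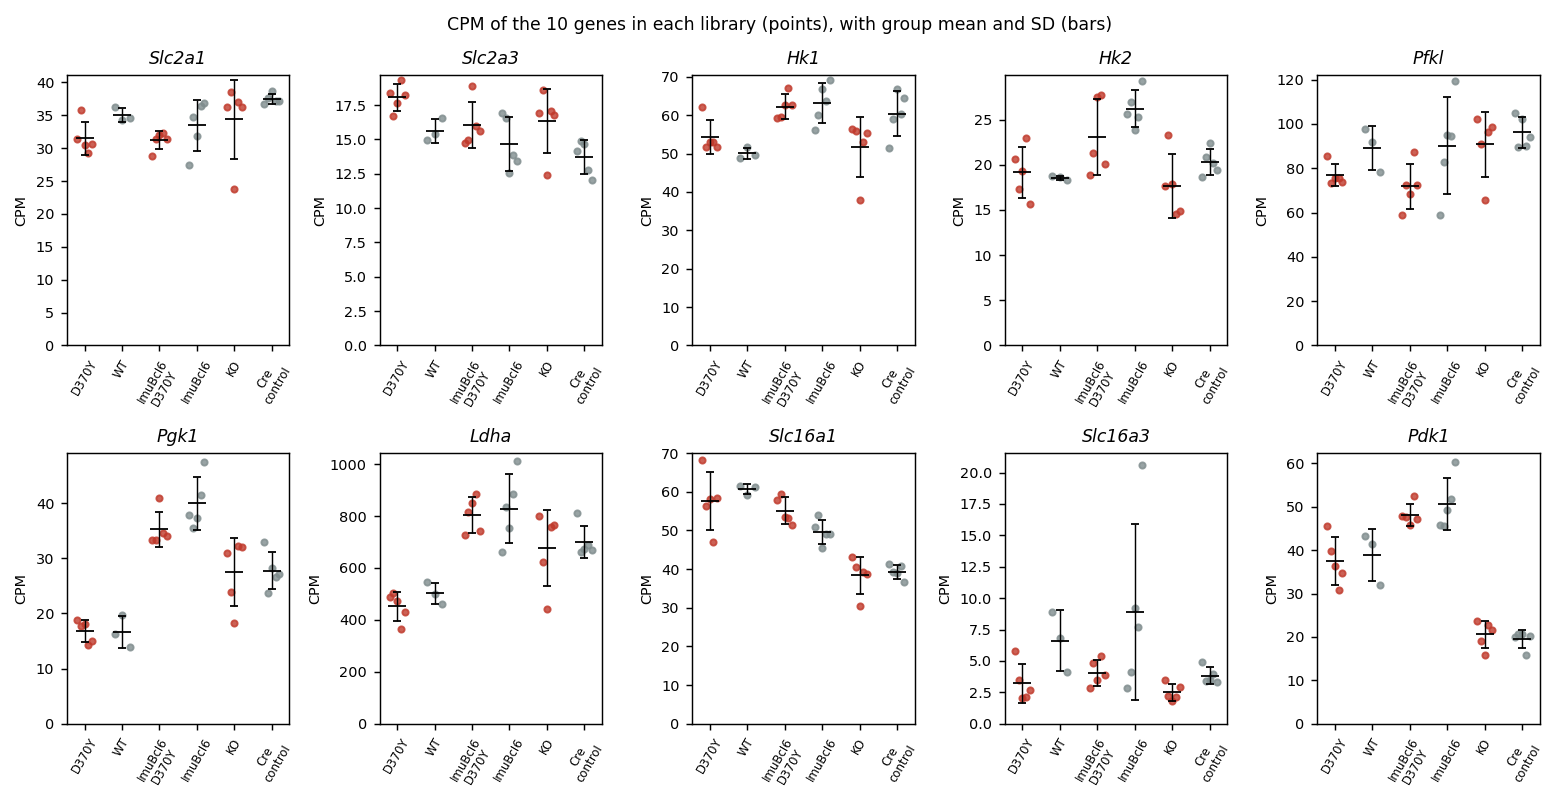
CPM of each of the 10 genes in every library (points), by group, with the group mean and SD (bars) on linear axes that start at 0; mutant or labelled KO groups are red and controls grey. Slc16a3 in ImuBcl6 spans 2.85 to 20.6 CPM, while Pgk1 and Ldha have lower means in the D370Y and WT groups than in the other 4.

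Pgk1 and Ldha had lower mean levels in the D370Y and WT groups than in the other 4. The level of Pgk1 (chromosome X, 106187100 to 106203699, plus strand) averaged 16.8 CPM in D370Y and 16.6 in WT, against 35.2 in ImuBcl6 D370Y, 39.9 in ImuBcl6, 27.5 in the group labelled KO and 27.7 in the Cre control. No D370Y or WT library exceeded 19.7 CPM, while the lowest library elsewhere, labelled KO replicate 3, had 18.3 CPM and the next lowest 23.8. For Ldha (chromosome 7, 46841475 to 46855627, plus strand) the corresponding means were 452, 502, 804, 828, 678 and 700.3 CPM. The D370Y and WT libraries spanned 363 to 544 CPM, and labelled KO replicate 3, at 442 CPM, lay inside that range, with all others of the 4 groups above it. WT, which carries the same genotype label as the Cre control, stood at 60.01% of the Cre control for Pgk1 and at 71.6% for Ldha. These groups differ in depth and possibly in library kit, so such differences across pairs were not tested.

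A symbol would count as near absent here if the D370Y and WT means were both under 1 CPM, or both under 10% of the Cre control. Either way the Cre control had to have at least 5 CPM. None of the 10 members met this, nor did any of the 96 members and pathway genes examined. Slc5a2, a listed glucose transporter, missed it only through the 5 CPM limit. It was at 0 CPM in D370Y and WT, against 4.15 in ImuBcl6 D370Y, 5.08 in ImuBcl6, 4.79 in labelled KO and 4.91 in the Cre control. Pgam2 averaged 0.231, 0.0730 and 3.17 CPM in D370Y, WT and the Cre control, also under that limit. Pgk1 and Ldha were nevertheless the members with the most near-identical sequence elsewhere: 68.8% of the Pgk1 transcript was matched at 95% identity or more over at least 100 bases by 4 other annotated genes, all pseudogenes, and 56.6% of the Ldha transcript by 5, all pseudogenes. Hk1 and Slc2a1 had 3.67% and 3.31%, and the other 6 had none. Among genes with at least 5 CPM in the Cre control, 7 of the 8 with 40% or more of the transcript in copies were below 75% of the Cre control in WT, with a median of 56.6%. Of the 38 with no copy, 6 were below 75%, with a median of 108%, and none of the 5 members among them was. With ImuBcl6 in place of the Cre control, WT was below 75% for 7 of the 8 and for 3 of the 38. Of the 5 members 1 was then below it, Hk2 at 70.8%. The 8 include Pgk1 and Ldha themselves, and the 40% and 75% limits were not among those planned beforehand. Gapdh, the glycolytic enzyme with 81 matching genes, averaged 1.23 CPM in WT and 8.64 in the Cre control, and was picked out after its values were seen. Pdk1, with no copy, went the other way, at 199.9% of the Cre control in WT (38.9 against 19.5 CPM). Genes with some copies but less than 40% were in neither set and lay on both sides. Among them Bnip3l (34.9% in copies) stood at 299% (45.9 against 15.3 CPM) and Tpi1 (19.3%) at 65.1%. Aldoa (467 CPM in WT, 715 in the Cre control) was not examined for copies. The cause of these differences was not tested. The sources used here do not state how reads with several matches were counted. The levels of Pgk1 and Ldha are therefore uncertain, and values for them are best read within a pair.

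**Figure D2:**
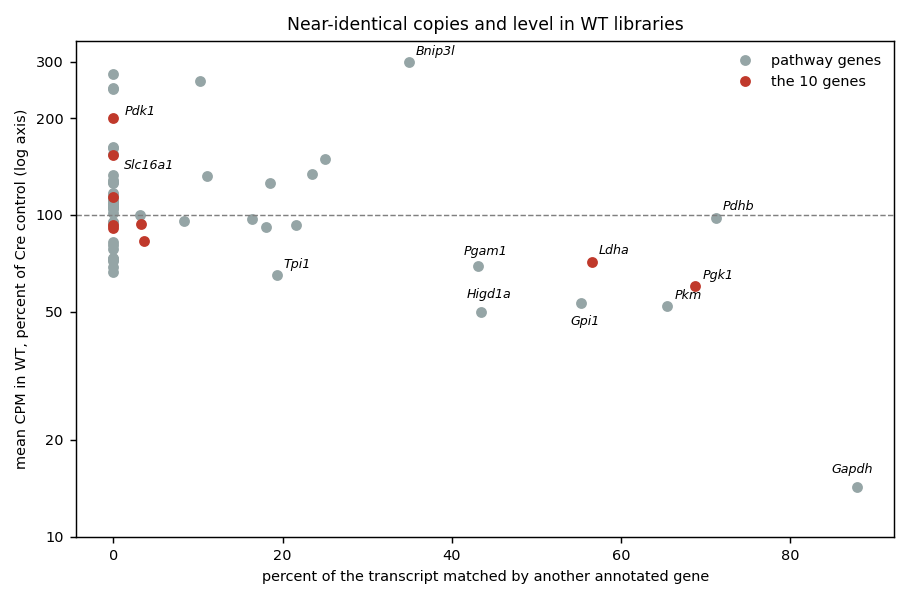
Each point is 1 gene with at least 5 CPM in the Cre control: the percent of its transcript matched by another annotated gene (horizontal axis) against its mean CPM in WT as a percent of the Cre control (vertical log axis), with the 10 members in red. Pgk1 and Ldha lie at 60.01% and 71.6%, beside other genes with many copies, and Gapdh is lowest at 14.3%.

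The comparisons of each allele with its own control ask whether the mutation changes the expression of this pathway. No member passed an adjusted p below 0.05 with limma in any of the 3. That is 0 of 10 in D370Y against WT, where 3.55% of 10600 tested genes passed, 0 of 10 in ImuBcl6 D370Y against ImuBcl6 (8.18% of 10784) and 0 of 10 in labelled KO against Cre control (1.39% of 10514). Of all tested genes 2.6% were called higher and 0.943% lower in the D370Y pair, 2.8% and 5.38% in the ImuBcl6 pair, and 0.476% and 0.913% in the labelled KO pair. Higher genes made up 34.2% of the calls in each of the last 2 pairs, and 44.6% and 48.3% with CPM over listed genes. In such bulk samples fewer cells of a type and less RNA per cell cannot be told apart. At an unadjusted p below 0.05 the counts were 3 (Slc2a3, Pfkl and Slc16a3; background 18.3%), 1 (Slc16a1; background 23.9%) and 1 (Slc16a3; background 9.05%). edgeR's quasi-likelihood test on recovered reads called none in any comparison, against 3.38%, 7.35% and 2.26% of genes. DESeq2 called Slc16a3 in D370Y against WT (6.22% of genes), none in the ImuBcl6 pair (12.8%) and Slc2a3 in labelled KO against Cre control (4.33%). The members' median log2 fold change was -0.07, -0.08 and -0.09, beside -0.02, -0.01 and -0.06 over all tested genes. All limma fold changes given are differences in log2(CPM + 1), a scale that shrinks those of low genes such as Slc16a3. Fold changes from edgeR and DESeq2 are estimated on reads without the added 1 CPM, so their size is not directly comparable with limma's.

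The lactate exporter Slc16a3 (chromosome 11, 120948480 to 120960868, plus strand) had the member estimate farthest from 0 in each comparison, below the control every time. In the D370Y libraries it was measured at 5.78, 3.52, 2.03, 2.10 and 2.71 CPM, and in WT at 8.91, 6.84 and 4.12 CPM. D370Y replicate 1 lay inside the WT range and the other 4 below it. Its log2 fold change was -0.87 (SE 0.27, 95% interval -1.46 to -0.28), with a limma adjusted p of 0.112. Without D370Y replicate 1 it was -1.05 with a limma adjusted p of 0.0231, and DESeq2 gave -1.02 with an adjusted p of 0.0394. With ImuBcl6 the D370Y libraries had 2.81, 4.80, 3.49, 5.41 and 3.88 CPM, and the controls 2.85, 4.13, 9.22, 7.67 and 20.6 CPM. The ImuBcl6 controls reached from the bottom of the narrow D370Y range to well above it, with replicate 5 highest. This gave a log2 fold change of -0.72 (SE 0.36, 95% interval -1.51 to 0.07, limma adjusted p = 0.252). Libraries labelled KO had 3.45, 2.21, 1.79, 2.17 and 2.94 CPM, against 4.95, 3.41, 3.49, 3.93 and 3.30 CPM in the Cre control. The groups met only at labelled KO replicate 1, which exceeded Cre control replicates 2 and 5. The log2 fold change was -0.47 (SE 0.14, 95% interval -0.76 to -0.17, limma adjusted p = 0.139). With sex as a term of the limma fit it was -0.56, adjusted p = 0.0363.

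Slc16a1 (chromosome 3, 104638668 to 104658462, plus strand), which encodes MCT1, had more CPM per kilobase than Slc16a3 in each of the 28 libraries. It was measured at 68.2, 56.3, 58.1, 47.1 and 58.5 CPM in D370Y and at 61.5, 59.2 and 61.2 CPM in WT. The D370Y libraries lay on both sides of the narrow WT range, with a log2 fold change of -0.08 (95% interval -0.29 to 0.12, limma adjusted p = 0.684). With ImuBcl6 the D370Y libraries had 58.0, 59.5, 53.4, 53.3 and 51.3 CPM and the controls 51.0, 54.0, 45.5, 49.1 and 49.0 CPM. The D370Y libraries were mostly above the controls, but the ranges overlapped, and the log2 fold change of 0.15 (95% interval 0.01 to 0.28) had a limma adjusted p of 0.182. In labelled KO against Cre control the means were 38.4 ± 4.73 and 39.4 ± 1.82 CPM (SD, n = 5 each), a log2 fold change of -0.04 (95% interval -0.26 to 0.17, limma adjusted p = 0.933).

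The glucose transporter Slc2a3 (chromosome 6, 122727809 to 122801640, minus strand) lay above its control on average in each comparison. Its D370Y libraries had 18.3, 16.7, 17.7, 19.4 and 18.2 CPM, and WT 14.9, 15.4 and 16.6 CPM. No WT library reached the lowest D370Y library, which made Slc2a3 the 1 member of 10 whose groups did not overlap, here with the mutant above (7.5% of genes had that pattern, and 7.27% the reverse). The log2 fold change was 0.20 (SE 0.08, 95% interval 0.03 to 0.37, limma adjusted p = 0.200). With ImuBcl6 the values were 14.7, 15.0, 18.9, 16.0 and 15.6 CPM with D370Y and 16.9, 16.6, 12.5, 13.9 and 13.4 CPM without. Both ranges overlapped broadly, at a log2 fold change of 0.12 (SE 0.10, 95% interval -0.09 to 0.34, limma adjusted p = 0.486). Libraries labelled KO had 16.9, 18.6, 12.4, 17.1 and 16.8 CPM, against 14.1, 14.9, 14.7, 12.8 and 12.03 CPM in the Cre control. No member's groups were apart in either of the other pairs, where 3.32% and 0.742% of genes lay apart upward and 5.64% and 3.49% downward. Apart from replicate 3, each library labelled KO was above each Cre control library, and the log2 fold change of 0.23 (SE 0.11, 95% interval -0.01 to 0.47) had a limma adjusted p of 0.574. It was 0.32 with a limma adjusted p of 0.0322 without labelled KO replicate 3, and 0.31 with DESeq2 on all libraries, adjusted p = 0.0130.

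Slc2a1 (chromosome 4, 119108711 to 119137983, plus strand), which encodes GLUT1, averaged 31.5 ± 2.52 CPM in D370Y (SD, n = 5) and 35.0 ± 1.07 in WT (n = 3). Replicate 2 of D370Y, at 35.8 CPM, lay inside the WT range of 34.2 to 36.2 CPM, and the other 4 were below it. The log2 fold change was -0.15 (95% interval -0.31 to 0.01, limma adjusted p = 0.319). It was -0.09 (95% interval -0.27 to 0.08, limma adjusted p = 0.548) in the ImuBcl6 pair, where the means were 31.2 and 33.5 CPM, and -0.14 (95% interval -0.39 to 0.11, limma adjusted p = 0.849) in labelled KO against Cre control, with means of 34.4 and 37.5 CPM.

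Hk1 (chromosome 10, 62268855 to 62379908, minus strand) is the constitutive hexokinase and Hk2 (chromosome 6, 82725025 to 82774454, minus strand) the inducible one. The level of Hk1 was 54.3 ± 4.46 CPM in D370Y and 50.1 ± 1.52 in WT (log2 fold change 0.11, limma adjusted p = 0.452), and 62.2 ± 3.18 against 63.1 ± 5.19 in the ImuBcl6 pair (-0.02, limma adjusted p = 0.907). For labelled KO it was 51.7 ± 7.82 against 60.4 ± 5.85 in the Cre control (-0.23, 95% interval -0.48 to 0.02, limma adjusted p = 0.613). Hk2 had 19.2 ± 2.84 against 18.6 ± 0.236 CPM, 23.1 ± 4.21 against 26.2 ± 2.02 CPM and 17.7 ± 3.51 against 20.3 ± 1.45 CPM in the same order. Its log2 fold changes were 0.03, -0.19 and -0.21, with limma adjusted p-values of 0.902, 0.317 and 0.689. All groups of both hexokinases overlapped with their controls.

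Pfkl (chromosome 10, 77986947 to 78010083, minus strand) had the second-lowest estimate of the members in both D370Y comparisons. It was measured at 85.7, 73.4, 75.6, 75.8 and 73.7 CPM in D370Y and at 97.5, 91.8 and 78.2 CPM in WT. Replicate 1 of D370Y exceeded WT replicate 3, and the other 4 were below all of WT. That is a log2 fold change of -0.21 (SE 0.08, 95% interval -0.39 to -0.03, limma adjusted p = 0.195). With ImuBcl6 the D370Y libraries had 59.0, 72.5, 68.5, 87.2 and 72.3 CPM and the controls 59.1, 82.8, 94.9, 94.4 and 119 CPM. Here 1 control, replicate 1, lay at the bottom of the D370Y range and replicate 2 within it, and the log2 fold change was -0.30 (SE 0.15, 95% interval -0.63 to 0.04, limma adjusted p = 0.264). Without that control library it was -0.44 with a limma adjusted p of 0.0304. In labelled KO against Cre control the means were 90.7 ± 14.7 and 96.1 ± 6.96 CPM, with a log2 fold change of -0.10 (95% interval -0.35 to 0.15, limma adjusted p = 0.896).

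Estimates for the later steps were near 0 or had intervals that held it. The log2 fold change of Pgk1 was 0.01 (95% interval -0.24 to 0.27) in D370Y, -0.17 (-0.36 to 0.01) with ImuBcl6 and -0.04 (-0.33 to 0.26) in labelled KO, with limma adjusted p-values of 0.965, 0.242 and 0.959. For Ldha it was -0.16 (95% interval -0.38 to 0.06), -0.03 (-0.25 to 0.19) and -0.08 (-0.39 to 0.24), with limma adjusted p-values of 0.436, 0.891 and 0.922. Pdk1 (chromosome 2, 71873224 to 71903858, plus strand) had -0.05 (95% interval -0.32 to 0.21), -0.06 (-0.23 to 0.10) and 0.07 (-0.17 to 0.32), with limma adjusted p-values of 0.856, 0.679 and 0.904. Its means were 37.5 against 38.9, 48.2 against 50.6 and 20.6 against 19.5 CPM. Of these 3 genes Pgk1 is X-linked, and in the D370Y comparisons all libraries of a group are of 1 sex.

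**Figure D3:**
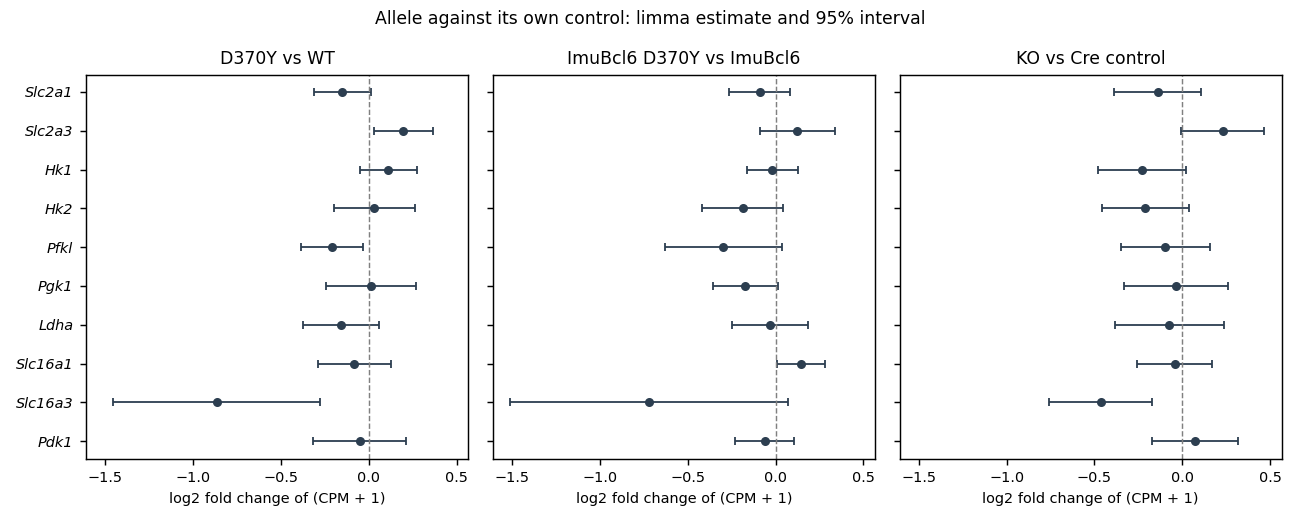
Log2 fold change of (CPM + 1) of each member for the allele against its own control (points), with the 95% interval from limma (bars), in the 3 comparisons; the dashed line marks no difference. The point for Slc16a3 is the lowest in each panel, at -0.87, -0.72 and -0.47, and the interval spans 0 in the ImuBcl6 pair.

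Differences between effects were tested as contrasts in 4-group fits. Neither contrast called a member with limma (0 of 10 for the D370Y effect with minus without ImuBcl6, background 0.663%, and 0 of 10 for the labelled KO effect minus the D370Y effect, background 0.145%), and edgeR called none either (background 0.636% and 0.0453%). Of all tested genes limma called 0.0896% higher and 0.573% lower in the former and 0.0272% higher and 0.118% lower in the latter. At an unadjusted p below 0.05 the counts were 0 (background 12.3%) and 1, Hk1 (background 6.14%). For Slc16a3 the D370Y effect with ImuBcl6 minus that without was 0.15 (95% interval -0.93 to 1.22), and the labelled KO effect minus the D370Y effect was 0.40 (95% interval -0.24 to 1.04). For Slc2a3 they were -0.07 (-0.34 to 0.20) and 0.03 (-0.27 to 0.33). These intervals are wide enough to hold differences as large as the effects themselves.

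Ratios within a library do not depend on its scaling, so paralogs with the same role were also compared as ratios, in 9 exact permutation tests (two-sided, on log2 ratios). In labelled KO against Cre control both transporter ratios differed, with more Slc2a3 relative to Slc2a1 and less Slc16a3 relative to Slc16a1. The Slc2a3/Slc2a1 ratio of CPM was 0.467, 0.482, 0.519, 0.461 and 0.462 in the libraries labelled KO and 0.385, 0.396, 0.379, 0.345 and 0.324 in the Cre control. The groups did not overlap, and labelled KO replicate 3 was highest. The geometric means were 0.478 and 0.365, a log2 difference of 0.39 (exact permutation p = 0.00794, the smallest that 5 against 5 can give; adjusted over the 9 tests, 0.0357). For Slc16a3/Slc16a1 the values were 0.0802, 0.0545, 0.0586, 0.0553 and 0.0759 in labelled KO and 0.120, 0.0870, 0.0897, 0.0962 and 0.0900 in the Cre control. Again the groups did not overlap, here with labelled KO below. The geometric means were 0.0640 and 0.0959, a log2 difference of -0.58 (exact permutation p = 0.00794, adjusted 0.0357). Among libraries with Xist the glucose transporter ratio was 0.482 to 0.519 in labelled KO and 0.324 to 0.396 in the Cre control, and the lactate transporter ratio 0.0545 to 0.0586 and 0.0870 to 0.120. Those with Y-linked reads had 0.461 to 0.467 against 0.345 and 0.0553 to 0.0802 against 0.0962, with 1 Cre control library. Without labelled KO replicate 3 the differences were 0.36 and -0.55, both with an adjusted exact p of 0.0357. When any 1 of the 5 Cre control libraries was left out the adjusted exact p was above 0.05, at 0.0714 for the glucose transporters and 0.0714 to 0.107 for the lactate transporters.

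The D370Y pairs had ratios on the same sides but did not pass. Slc2a3/Slc2a1 had geometric means of 0.573 in D370Y and 0.446 in WT (exact permutation p = 0.0536, adjusted 0.121), where 5 against 3 cannot go below 0.0179, and 0.512 against 0.438 in the ImuBcl6 pair (exact permutation p = 0.143, adjusted 0.194). The D370Y range of 0.466 to 0.660 overlapped that of WT, 0.412 to 0.479, through replicate 2 alone. Slc16a3/Slc16a1 had 0.0521 against 0.104 (exact permutation p = 0.0536, adjusted 0.121) and 0.0722 against 0.142 (exact permutation p = 0.111, adjusted 0.194). The ImuBcl6 controls spanned 0.0559 to 0.421, and 4 of the 5 ImuBcl6 D370Y libraries lay within that range, the lowest at 0.0485. Hk2/Hk1 differed least, with 0.351 against 0.371, 0.367 against 0.416 and 0.340 against 0.337 (exact permutation p = 0.554, 0.151 and 0.960; adjusted 0.623, 0.194 and 0.960). Ldha was not set against Ldhb, whose level was at most 0.105 CPM in every library. As 76.8% of the Ldhb transcript is matched by 1 pseudogene, that low level is uncertain too.

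**Figure D4:**
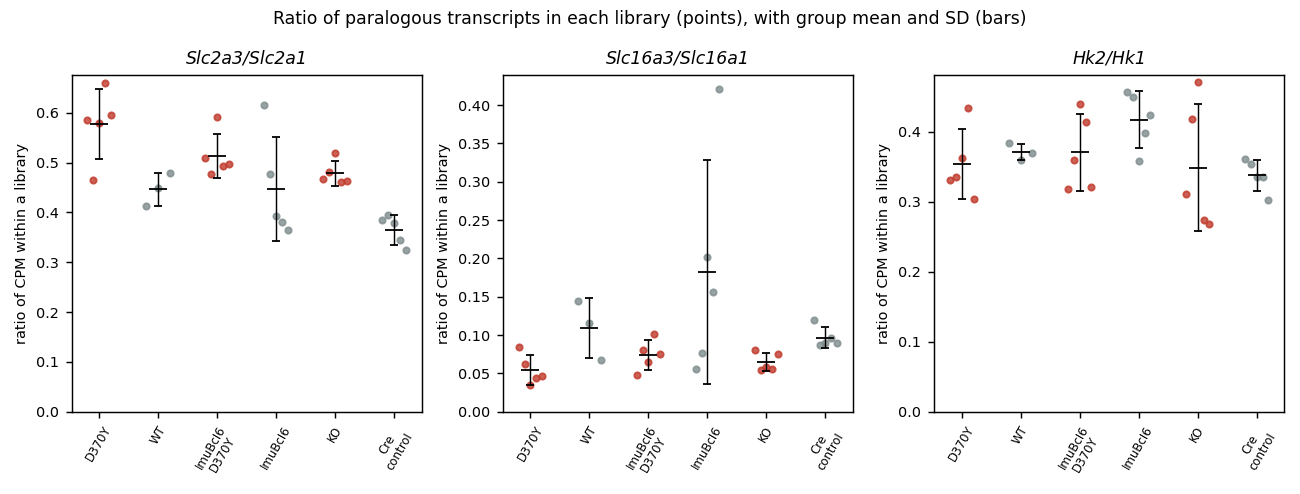
Ratio of CPM of 2 paralogs within each library (points), by group, with the arithmetic mean and SD (bars) on linear axes from 0; mutant or labelled KO groups are red and controls grey. In the labelled KO pair Slc2a3/Slc2a1 lies at 0.461 to 0.519 against 0.324 to 0.396, and Slc16a3/Slc16a1 at 0.0545 to 0.0802 against 0.0870 to 0.120.

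The other genes of the pathway were read in 5 lists: glycolytic enzymes, glucose and monocarboxylate transporters, pyruvate entry to mitochondria, control of glycolytic flux, and HIF targets outside glycolysis. No glycolytic enzyme outside the members passed with limma in any comparison (0 of 12, 0 of 13 and 0 of 14 tested, with medians of -0.12, -0.05 and -0.07). At an unadjusted p below 0.05 the counts were 3, 2 and 2, all lower, beside 18.3%, 23.9% and 9.05% of all genes in either direction; edgeR called 0, 0 and 1 and DESeq2 0, 1 and 1, in each case Pfkp, the platelet-type phosphofructokinase, lower. Pkm, the pyruvate kinase, and Aldoa, the aldolase, had the highest mean CPM among them and are given here. This ranking is uncertain, as 65.5% of the Pkm transcript lies in copies and Aldoa was not examined for them. Eno1, an enolase with 85.6% of its transcript in copies, averaged 0.102 CPM in the Cre control and 0 in WT. Whether reads with several matches were lost was not tested. The means of Pkm were 448 against 483, 894 against 997 and 851 against 927 CPM, and those of Aldoa 418 against 467, 729 against 804 and 684 against 715 CPM, with overlapping groups each time. Among the transporters Slc2a9, a urate and hexose carrier, was higher in ImuBcl6 D370Y than in ImuBcl6 (2.39 against 1.21 CPM, log2 fold change 0.63, limma adjusted p = 0.0419; 1 of 7 tested rose and 0 fell, beside 2.8% and 5.38% of all genes). It had 0.64 in D370Y against WT with an adjusted p of 0.0511, and 0.03 in labelled KO. Pdk3, another pyruvate dehydrogenase kinase, fell in the ImuBcl6 pair (87.8 against 105 CPM, log2 fold change -0.26, limma adjusted p = 0.0265; 1 of 11 fell, beside 5.38% of all genes). In that list edgeR and DESeq2 both called Pdk2, a further kinase, higher in D370Y against WT (limma log2 fold change 0.63, adjusted p = 0.0556), and DESeq2 called Dlat, a pyruvate dehydrogenase subunit, higher in the ImuBcl6 pair (limma 0.18, adjusted p = 0.0742). In the same pair 2 of 19 genes that control flux fell (5.38% of all genes did), Trp53 (137 against 167 CPM, -0.28, limma adjusted p = 0.0387) and Egln3. Of 19 settings, the main one included, the call held in 11 for Slc2a9, 15 for Pdk3, 7 for Trp53 and 10 for Egln3. The edgeR test lost it for Slc2a9 and Trp53 (adjusted p = 0.0512 for both). In the transporter and flux lists DESeq2 but not limma called Slc2a9 and Pfkfb4 higher in D370Y against WT. It also called Gsk3b lower in the ImuBcl6 pair, and Slc2a6 and Pfkfb3 higher in labelled KO against Cre control.

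HIF targets outside glycolysis held 4 of the 8 calls made in these lists over the 3 comparisons, all 4 lower. In D370Y against WT 1 of 14 fell (0.943% of all genes did), and in ImuBcl6 D370Y against ImuBcl6 3 of 15 (5.38%), while 0 of 13 passed with limma in labelled KO against Cre control (0.913% of all genes fell). In that last pair 4 were lower at an unadjusted p below 0.05, beside 9.05% of all genes in either direction, and edgeR and DESeq2 each called 2, Narf and Ndrg1, both lower. DESeq2 called 1 member of the list higher, Pfkfb4 in D370Y against WT. Ankrd37 was called lower by DESeq2, but not by limma or edgeR, in both D370Y comparisons. The list medians were -0.19, -0.11 and -0.19, beside -0.02, -0.01 and -0.06 over all genes. Narf, which encodes a prelamin A binding protein, was measured at 66.1, 76.0, 60.2, 56.5 and 62.7 CPM in D370Y and 81.4, 84.3 and 84.0 CPM in WT. The groups did not overlap (log2 fold change -0.37, SE 0.09, limma adjusted p = 0.0312). With ImuBcl6 it had 53.8, 65.1, 55.9, 55.995 and 53.0 CPM with D370Y and 72.2, 65.4, 87.5, 70.3 and 90.0 CPM without. Again each D370Y library was below each control (log2 fold change -0.43, SE 0.09, limma adjusted p = 0.0140), and the call held in all 19 settings run. Libraries labelled KO had 62.5, 56.7, 43.6, 54.5 and 63.7 CPM against 82.2, 71.7, 70.4, 94.8 and 74.1 CPM, with no overlap and a limma adjusted p of 0.0521 at a log2 fold change of -0.48. Ndrg1, a gene induced by hypoxia and stress, fell in the ImuBcl6 pair (7.70 against 16.2 CPM, log2 fold change -0.95, SE 0.22, limma adjusted p = 0.0219). Its log2 fold change was -0.25 in D370Y (limma adjusted p = 0.360) and -0.44 in labelled KO (limma adjusted p = 0.0535). Egln3 and Egln1 encode the oxygen-sensing prolyl hydroxylases that mark HIF for decay. Egln3 fell in the ImuBcl6 pair (0.953 against 3.30 CPM, log2 fold change -1.04, limma adjusted p = 0.0405), and Egln1 in D370Y against WT (22.5 against 29.3 CPM, log2 fold change -0.37, limma adjusted p = 0.0430). In D370Y against WT the call held in 5 of 17 settings for Egln1 and in 9 of 17 for Narf. Each of the 3 runs without a WT library lost both. In the ImuBcl6 pair the call held in 10 of 19 settings for Egln3 and in 17 of 19 for Ndrg1.

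**Figure D5:**
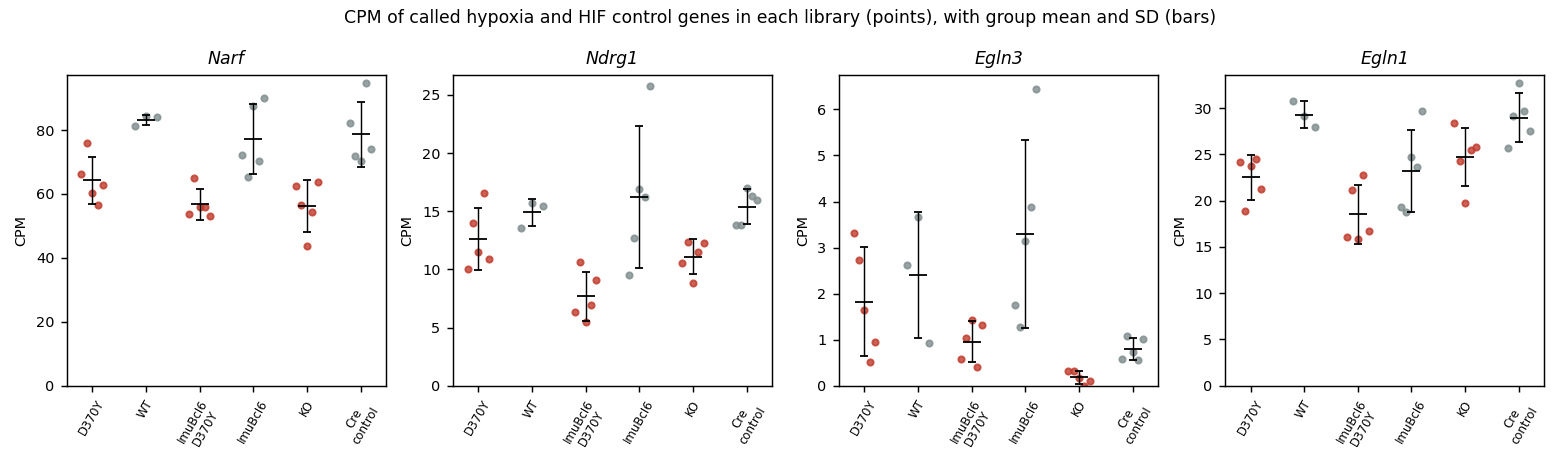
CPM of Narf, Ndrg1, Egln3 and Egln1 in every library (points), by group, with the group mean and SD (bars) on linear axes from 0; mutant or labelled KO groups are red and controls grey. Narf in ImuBcl6 D370Y spans 53.0 to 65.1 CPM, below the ImuBcl6 range of 65.4 to 90.0.

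Some of the members varied together within groups, and others did not. With each gene's log2(CPM + 1) centred on its group, the 5 genes outside the members most like the members' mean over 28 libraries were Pgm2 (Pearson r 0.94), Pkm (0.94), Aldoa (0.93), Ccdc22 (0.93) and Tagln2 (0.93), out of 11302 compared. Without labelled KO replicate 3, over 27 libraries, they were Aldoa (0.90), Pkm (0.89), Pgm2 (0.88), Ccdc22 (0.85) and Tpi1 (0.85). Pgm2, Pkm, Aldoa and Tpi1 encode enzymes of sugar phosphate metabolism or glycolysis. Within the members, over the same 27 libraries, Pfkl and Slc16a3 had r 0.87 and Pgk1 and Ldha 0.73, while Slc2a3 had r -0.51 with Slc16a3, -0.40 with Pfkl and -0.29 with Ldha. Hk2 had r -0.12 with Pgk1 and -0.05 with Ldha. All points share the denominator of their library, and Pgk1 and Ldha each have near-identical copies of their own. ImuBcl6 replicate 5 was the highest of its group for 8 of the 10 members, and ImuBcl6 D370Y replicate 4 for 7, while ImuBcl6 D370Y replicate 1 was the lowest for 7.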

How the data were processed

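Per the labels, the data are RNA-seq of mouse GC B cells. Extraction used Trizol and RNeasy, and a stranded TruSeq kit appears in the labelled KO and Cre control protocols. Per the submitters' processing notes reads were aligned with STAR to mm10; the counter, its strand setting and annotation, and the handling of multiply mapped reads remain not given in the sources used here. Deposited by the authors was 1 table of CPM per library. Reads from near-identical, overlapping or antisense genes may have been shared or lost. Every CPM value was a whole multiple of 1 read (tolerance 0.01 read), so reads were recovered for 100% of values.

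The main test was limma 3.58.1 (R 4.3.3; trend, robust) on log2(CPM + 1), 1 fit per pair, with genes kept at 1 CPM or more in as many libraries as the smaller group, two-sided, Benjamini-Hochberg adjusted over all kept genes and called below 0.05. edgeR 4.0.16 and DESeq2 1.42.0 on recovered reads, other scalings, filters and pseudocounts, a replicate block and leaving out libraries were alternatives. edgeR called 358, 793 and 238 genes in the 3 comparisons. Paralog ratios used exact permutation tests over every split of a pair's libraries (Python 3.11.15). Copies were found with blastn 2.17.0 among GENCODE M21 transcripts, which also gave coordinates (GRCm38) and exon lengths. The limma steps were tested on simulated data. The members and lists were chosen with earlier results of these data known. Named genes were all 10 members, up to 4 called genes per list (otherwise the 2 with the highest mean CPM), and the 5 most like the members' mean. Gapdh, Eno1, the cell type markers, and the list genes named only because edgeR or DESeq2 called them (Pfkp, Pdk2, Dlat, Pfkfb4, Ankrd37, Gsk3b, Pfkfb3, Slc2a6) were named after their values were seen.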

Additional observations from a re-analysis of the deposited data

Results flagged for a closer look

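Each library was set against the rest of its group for the 10 members and for the share of the CPM denominator on listed genes, in groups of 5, and a library was picked out where its gap to the nearest other exceeded the critical value for that group size. This marked 10 of 55 tests, where chance marks about 1 in 20. In D370Y replicate 1 the level of Hk1 was 62.2 CPM (others 51.7 to 53.1) and that of Pfkl 85.7 CPM (others 73.4 to 75.8). D370Y replicate 4 had 78.7% of its denominator on listed genes (others 81.9% to 82.4%). Slc2a1 was at 28.9 CPM in ImuBcl6 D370Y replicate 1 (others 31.4 to 32.4), and Pgk1 at 40.9 CPM in ImuBcl6 D370Y replicate 3 (others 33.3 to 34.7). Labelled KO replicate 3 had 3 such values: Slc2a1 at 23.9 CPM (others 36.2 to 38.6), Hk1 at 38.0 CPM (others 53.0 to 56.5) and a listed share of 64.4% (others 82.6% to 84.6%). Ldha stood at 811 CPM in Cre control replicate 1 (others 660.3 to 687), and Pdk1 at 15.7 CPM in Cre control replicate 4 (others 20.02 to 20.7), which is the Cre control library with Y-linked reads. In the group labelled KO Pdk1 went the other way, at 21.7 to 23.7 CPM in the 3 libraries with Y-linked reads and 16.0 to 19.0 CPM in the 2 with Xist.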

How the results depend on the processing

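Of 640 values of the members' log2 fold changes and effect differences under other settings, 594 kept their direction and their side of the threshold, 8 passed it and 38 changed sign, in 11 of 34 results, none of the 38 with an adjusted p under 0.645. Members called numbered 1 in D370Y against WT with DESeq2, with the replicate block and in 1 leave-one-out run (Slc16a3 each time; range 0 to 1), 1 in the ImuBcl6 pair in 1 leave-one-out run (Pfkl; 0 to 1), and 1 in labelled KO against Cre control with DESeq2, without replicate 3 alone or with TMM scaling (Slc2a3; 0 to 1) and with a sex term (Slc16a3). Paralog ratios passing numbered 0 to 3 over the leave-one-out runs, against 2. Genes called in D370Y against WT numbered 376, and 219 with no filter, 659 with DESeq2, 249 with all 28 libraries in 1 fit, and 124 to 473 leaving out 1 library, lowest without WT replicates 1, 2 and 3 (149, 148 and 124). In the ImuBcl6 pair they numbered 882, 1378 with DESeq2 and 434 to 1016 leaving out 1 library, with 546, 501 and 434 without ImuBcl6 D370Y replicates 2 and 3 and ImuBcl6 replicate 3. In labelled KO against Cre control they numbered 146, and 86 with no filter, 236 with CPM over listed genes, 238 with edgeR, 455 with DESeq2, 279 with all 28 libraries in 1 fit, 513 with TMM and without labelled KO replicate 3, and 87 to 449 leaving out 1 library (449 without labelled KO replicate 3, 87 and 90 without Cre control replicates 2 and 3). CPM over listed genes and the TMM run without labelled KO replicate 3 were chosen after the data were seen. The share of calls that were higher was 34.2% in the ImuBcl6 pair and 44.6% with CPM over listed genes or 45.3% with DESeq2. It was 34.2% in labelled KO against Cre control and 47.6% with TMM, 48.3% with CPM over listed genes, 49.2% with edgeR or 50.5% with DESeq2.

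The replicate numbers were checked for pairing: correlations of same-numbered deviations ranged from -0.28 to 0.51 and were not all above 0.1, so the libraries were not treated as paired. With so few libraries this check cannot exclude a pairing. With the replicate block 764, 1000 and 183 genes were called, Slc16a3 had an adjusted p of 0.0045 in D370Y against WT, and Pdk1 had 0.066 there in place of -0.05. WT has no counterpart of D370Y replicates 4 and 5, so those block estimates rest on same-numbered replicates 1, 2 and 3 alone. The correlations of these were -0.04, 0.17 and 0.03.

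Signs changed as follows, on the log2 scale. In labelled KO against Cre control Pgk1 was at 0.019 with TMM, 0.025 with CPM over listed genes, 0.038 with edgeR and 0.037 with DESeq2, Slc16a1 at 0.012, 0.018, 0.024 and 0.023, and Ldha at 0.0013 with edgeR and 0.00050 with DESeq2. With TMM and without labelled KO replicate 3 Pfkl was at 0.013, Pgk1 at 0.096, Ldha at 0.068 and Slc16a1 at 0.033. In the ImuBcl6 pair Hk1 was at 0.0036 with CPM over listed genes, and the D370Y effect difference of Slc16a3 was -0.076 with edgeR. Leaving out 1 library gave ranges of -0.033 to 0.098 for Hk2, -0.099 to 0.13 for Pgk1 and -0.18 to 0.027 for Pdk1 in D370Y, of -0.059 to 0.015 for Hk1, -0.11 to 0.044 for Ldha and -0.097 to 0.0011 for Pdk1 in the ImuBcl6 pair, and of -0.14 to 0.015 for Pfkl, -0.098 to 0.098 for Pgk1, -0.14 to 0.070 for Ldha and -0.086 to 0.035 for Slc16a1 in labelled KO. It gave -0.13 to 0.49 for the Slc16a3 effect difference and -0.11 to 0.097 for Hk2/Hk1 in labelled KO. The cause of these changes was not tested. At 53 reads in its lowest library, Slc16a3 is the member whose values depth limits most.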
